A study of Schizosaccharomyces pombe with 5 samples.

Results

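A set of 6 genes for chaperones of 2 organelles was followed as resting fission yeast cells (Schizosaccharomyces pombe) returned to growth. They are hsp10, mcp60, ssc1, mdj1 and hsp78, whose products work in the mitochondrial matrix, and bip1, whose product works in the endoplasmic reticulum (ER). Members were taken by gene symbol, as the spots whose single annotated symbol is one of these 6 names, and 6 of the 4797 measured genes met that rule. Each had 1 spot with a value on all 5 arrays. The names were chosen with earlier results of these data known, so their counts beside all genes are descriptions and not tests.

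Each array carried RNA of growing cells labelled with Cy5 and RNA of G0 cells labelled with Cy3, all of the strain L972. G0 cells had been starved of nitrogen for 48 h at 26 °C. Of the growing samples 4 were such starved cells taken 1, 2, 3.5 or 6 h after 4 volumes of fresh nitrogen-containing medium had been added, so nitrogen and fresh medium came together. The other was a culture in logarithmic (vegetative) growth that had not been starved. There was 1 array per condition and, per the submitters' design text, no experiment was repeated, so the differences lack replicates and no p-value between conditions can be given.

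Chaperones hold unfolded proteins and help them reach their folded shape. Most mitochondrial proteins are made in the cytosol and enter the organelle unfolded, where the Hsp70 protein of the matrix pulls them in and passes some of them to a barrel-shaped chaperonin. In the ER another Hsp70 protein binds proteins that enter the secretory pathway. In eukaryotes many chaperone genes respond to heat shock factor, and in fission yeast the mRNA of bip1 is also cut and thereby stabilised by the ER stress sensor Ire1.

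Values are log2 ratios of growing over G0 cells, so 0 means the same signal as in G0 cells, 1 means 2-fold higher and -1 means 2-fold lower. Levels are relative to the labelled RNA and are not amounts per cell. A gene was said to differ when it was at least 2-fold higher or lower, a criterion of size with no test behind it. Base 2 is an assumption, because no source used here states the base. None of the 6 genes was at least 2-fold above G0 cells at 1 h or 2 h, where 23.4% and 22.8% of all genes were. All 6 were 2-fold above G0 cells at 3.5 h, where 18.9% of all genes were, and 5 of 6 at 6 h (15.6% of all genes) as well as during vegetative growth (15.8%). The exception on both of these arrays was hsp78. Cultures were measured in bulk, so more RNA per cell and more cells with that RNA cannot be told apart. None of the 6 was 2-fold below G0 cells on these 3 arrays, where 16.7%, 14.9% and 14.6% of all genes were. The starvation-induced protease gene isp6 lay below G0 cells on all 5 arrays, at -2.78 after 1 h and -3.72 in vegetative cells. It was picked with its values known, so it is not an independent check of the labels.

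**Figure D1:**
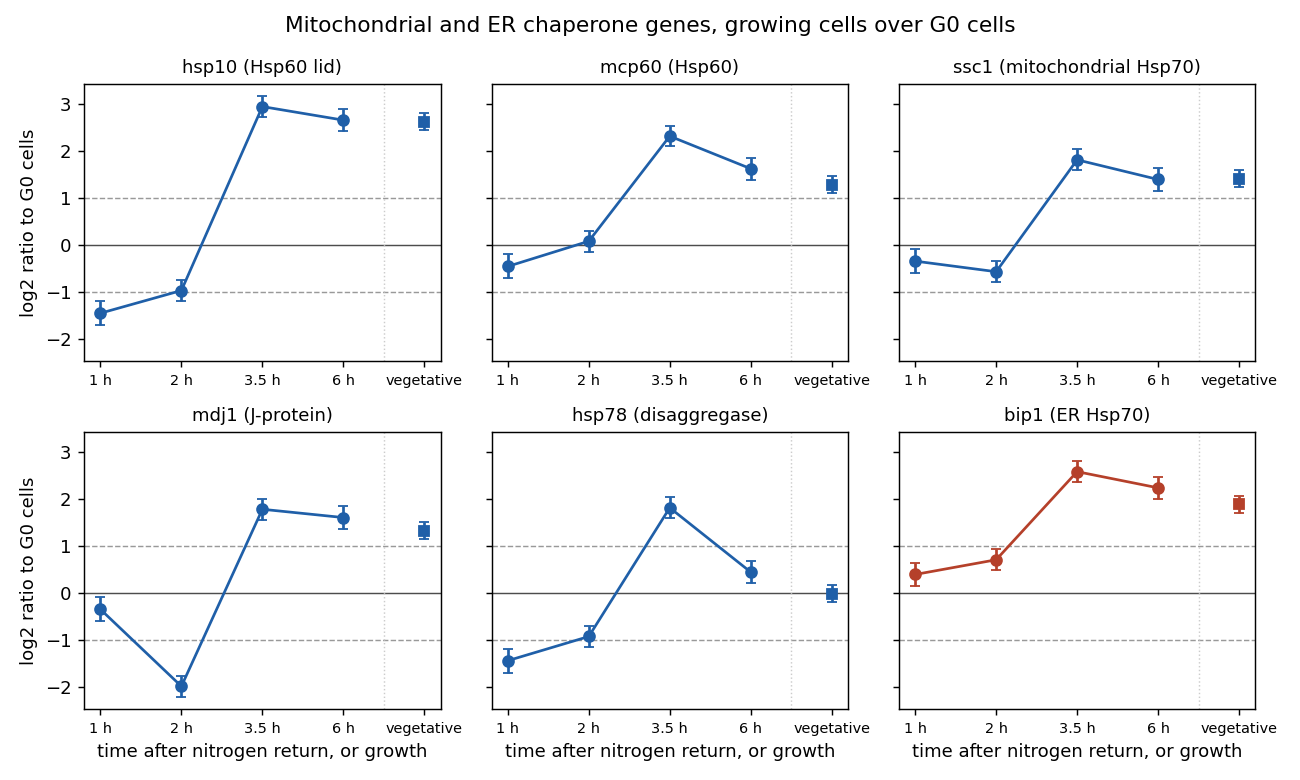
Log2 ratio of growing over G0 cells (vertical axis) for the 6 chaperone genes on the 4 time course arrays (circles) and the vegetative array (square), evenly spaced and not to scale in time; blue panels are mitochondrial and the red one is ER. Bars are 1 SD between repeated spots of 3 control genes on that array (0.18 to 0.25), not an error of the gene itself, and dashed lines mark 2-fold. All 6 genes lie between 1.78 and 2.95 after 3.5 h, above their own values at 1 h and 2 h.

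Of the chaperonin pair, hsp10 encodes the lid that closes the Hsp60 barrel. Its log2 ratio was -1.44 after 1 h, -0.96 after 2 h, 2.95 after 3.5 h, 2.66 after 6 h and 2.63 in vegetative cells. It was thus 2.72-fold below G0 cells at 1 h and 7.71-fold above them at 3.5 h, and the last 3 values lay within 0.32 of each other. It ranked 51st from the top of 4779 genes at 3.5 h, 47th of 4779 at 6 h and 34th of 4765 in vegetative cells, against 4068th of 4769 at 1 h. At 1 h, 22.6% of all genes were 2-fold below G0 cells.

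The gene mcp60 encodes the Hsp60 subunit of the barrel itself. It stood at -0.45 after 1 h, 0.09 after 2 h, 2.32 after 3.5 h, 1.63 after 6 h and 1.28 in vegetative cells. The hsp10 ratio minus the mcp60 ratio was -0.99 after 1 h, -1.05 after 2 h, 0.63 after 3.5 h, 1.03 after 6 h and 1.34 in vegetative cells. Repeated spots of the control genes give a difference of 2 such spots an SD of 0.26 to 0.36 on these arrays, and 12 noisier unnamed positions, spotted in each of the 16 blocks, an SD of 0.54 to 0.67. The difference exceeded 2 SD of the noisier spots in vegetative cells only, and on the other 4 arrays it lay between 1 and 2 SD of them.

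The gene ssc1 encodes the Hsp70 of the mitochondrial matrix, which drives import and folds matrix proteins. Its log2 ratio was -0.34 after 1 h, -0.56 after 2 h, 1.81 after 3.5 h, 1.40 after 6 h and 1.42 in vegetative cells. The values before 3.5 h lay less than 2-fold from G0 cells, and those from 3.5 h on were all at least 2.63-fold above them.

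The gene mdj1 encodes the J-protein that stimulates this Hsp70. Its ratio was -0.34 after 1 h, -1.98 after 2 h, 1.78 after 3.5 h, 1.61 after 6 h and 1.33 in vegetative cells. On 4 arrays ssc1 minus mdj1 was between -0.21 and 0.086, but at 2 h it was 1.41. The mdj1 gene was the only one of the 6 that was 2-fold below G0 cells at 2 h (21.3% of all genes were) and the only one that differed 2-fold between 2 h and 1 h (-1.64, where 7.49% of all genes were 2-fold lower and 4.67% higher). That low value rests on 1 spot.

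A pair of partners of this Hsp70 did not share its course. The gene mge1 encodes its nucleotide exchange factor and stood at 1.51, 1.13, 0.95, 1.45 and 1.73 in array order (1, 2, 3.5 and 6 h, then vegetative). The gene tim44 encodes the subunit that ties the Hsp70 to the import channel and stood at 1.39, 1.03, 1.25, 1.26 and 1.19. Both were already 2-fold above G0 cells at 1 h, when ssc1 differed from mge1 by -1.84 and from tim44 by -1.73. At 6 h and in vegetative cells it differed from either by -0.31 to 0.23.

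The gene hsp78 encodes the disaggregase of the matrix, which pulls proteins out of aggregates together with the Hsp70. It stood at -1.43 after 1 h, -0.92 after 2 h, 1.82 after 3.5 h, 0.45 after 6 h and -0.006 in vegetative cells. It alone of the 6 was 2-fold above G0 cells on a single array. Between 6 h and 3.5 h it differed by -1.37, the only one of the 6 past 2-fold at this step, where 2.85% of all genes were 2-fold lower and 4.13% higher, and it ranked 4737th from the top of 4768 genes. Its ratio at 3.5 h exceeded that in vegetative cells by 1.82, which placed it 43rd from the top of 4753 genes.

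Its counterpart in the cytosol, hsp104, was singled out after its values were seen. It stood at -2.58 after 1 h, -2.58 after 2 h, 0.94 after 3.5 h, -0.17 after 6 h and -0.43 in vegetative cells, so its highest value was also at 3.5 h. The gene lon1, for the protease of the same matrix, stood at -1.10, -0.88, -0.031, 0.44 and 0.65 in array order and had no peak at 3.5 h, when it was 1.85 below hsp78.

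**Figure D2:**
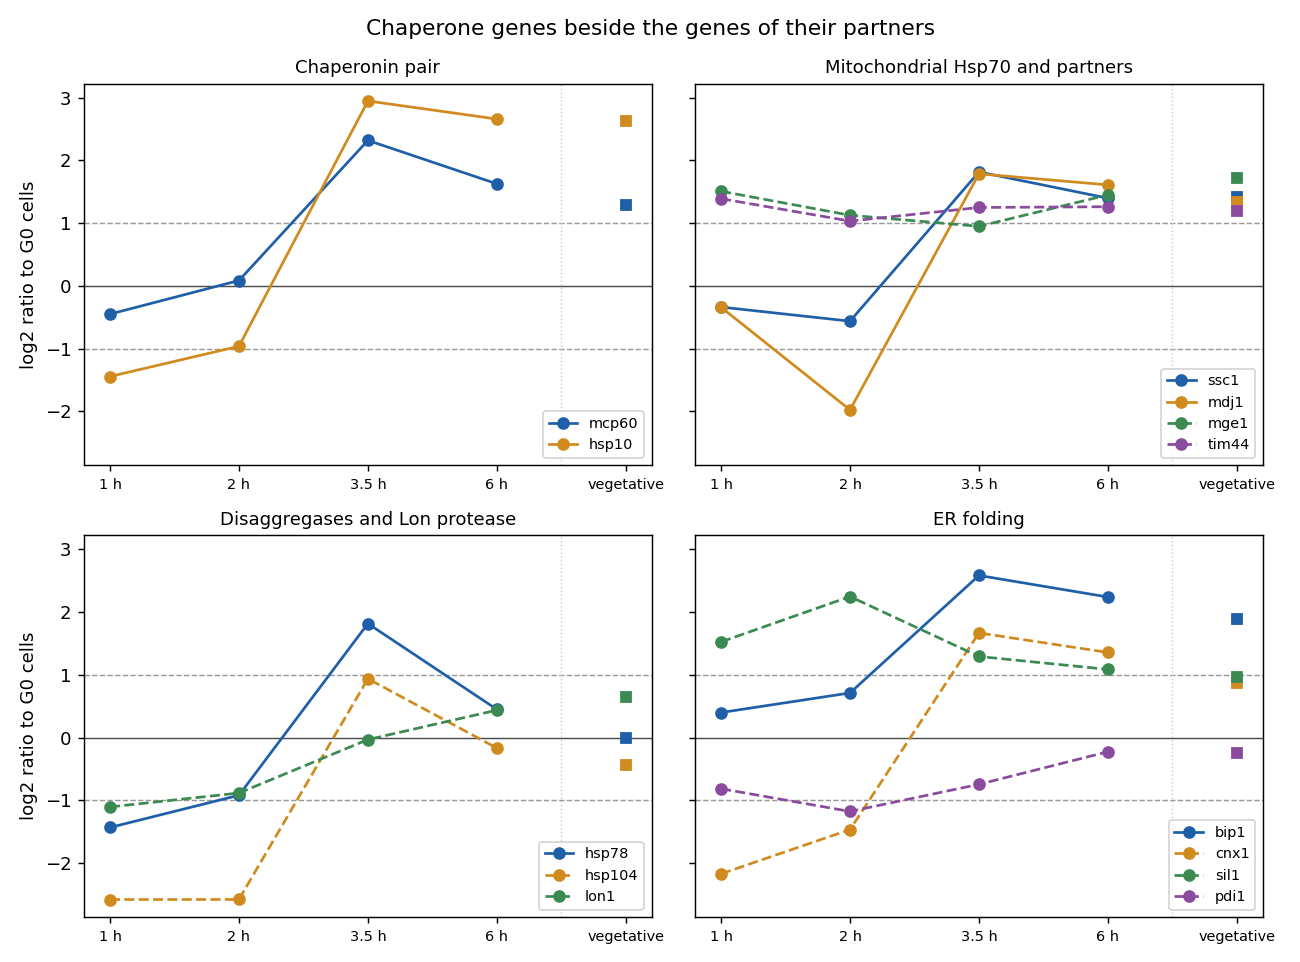
Log2 ratio of growing over G0 cells (vertical axis) on the 5 arrays for the chaperone genes (solid lines) and genes of their partners (dashed lines); squares are the vegetative array, dashed horizontal lines mark 2-fold, and times are evenly spaced. The genes mge1 and tim44 stay between 0.95 and 1.73, while ssc1 and mdj1 lie below 0 at 1 h and 2 h.

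The ER Hsp70 gene bip1 (Kar2 in budding yeast) was the one member above G0 cells on every array, with log2 ratios of 0.40 after 1 h, 0.71 after 2 h, 2.58 after 3.5 h, 2.24 after 6 h and 1.89 in vegetative cells. It was 6.00-fold above G0 cells at 3.5 h. Its value exceeded that of ssc1, the mitochondrial Hsp70 gene, on all 5 arrays, by 0.48 to 1.27, but by more than 2 SD of the unnamed spots at 2 h only. The cytosolic Hsp70 gene ssa2 stood at -2.58, -2.76, 1.85, 1.18 and 1.02 in array order. At 1 h and 2 h ssa2 lay at least 2.19 below ssc1, which exceeds 2 SD of those spots, while bip1 and ssc1 cannot be ordered at 1 h. At 3.5 h ssc1 differed from ssa2 by -0.031.

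Genes that act with bip1 took several courses. The calnexin gene cnx1, for a membrane chaperone of glycoproteins, stood at -2.17 after 1 h, -1.46 after 2 h, 1.67 after 3.5 h, 1.36 after 6 h and 0.87 in vegetative cells. The exchange factor gene sil1 ran the other way, with 1.53 and 2.25 after 1 h and 2 h and between 0.96 and 1.29 later. The J-protein gene erj5 stood at 0.89, 2.07, 1.00, 1.09 and 1.91 in array order. The protein disulfide isomerase gene pdi1 lay below G0 cells throughout, from -1.18 after 2 h to -0.22 after 6 h.

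The difference between 3.5 h and 2 h was the largest successive step of all 6 genes. It was 3.91 for hsp10, 3.76 for mdj1, 2.73 for hsp78, 2.38 for ssc1, 2.23 for mcp60 and 1.87 for bip1. All 6 passed 2-fold, where 11.6% of all genes were 2-fold higher and 10.4% lower, and the members' median was 2.56. From the top of 4767 genes they ranked 18th, 21st, 57th, 82nd, 98th and 155th in that order. As the members were chosen with earlier results of these data known, this contrast with all genes is not independent. The same step was measured on repeated spots with an SD of 0.22 for the control genes and 0.42 for the unnamed positions.

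This step also crosses the 2 forms in which values were deposited, with 9 decimals at 1 h and 2 h and 3 decimals from 3.5 h on, so the times and these sets cannot be told apart. These 12 unnamed positions, whose content is not given, were higher at 3.5 h than at 2 h by 0.59 on average (0.37 to 0.79 by position). The gene median was 0.14 after 3.5 h and 0.004 after 2 h. The smallest step among the 6 genes was 1.87, and the part of this shift in the result was not tested.

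**Figure D3:**
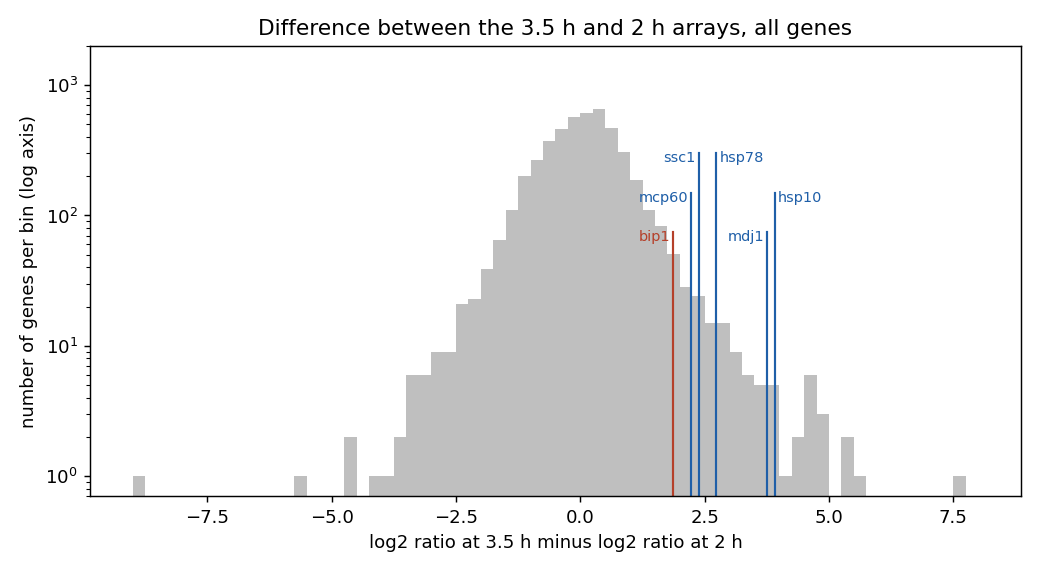
Number of genes (vertical log axis) by the log2 ratio at 3.5 h minus that at 2 h (horizontal axis, bins of 0.25) for all 4767 genes with both values, with vertical lines at the 5 mitochondrial genes (blue) and bip1 (red). The 6 lines lie between 1.87 and 3.91.

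After 3.5 h, 5 of the 6 genes stayed at least 2-fold above G0 cells and hsp78 did not. All 6 were lower at 6 h than at 3.5 h, with differences of -0.18 (mdj1) to -1.37 (hsp78), but for 5 of them the difference was under 2 SD of the unnamed repeated spots (SD 0.40), so their values at these times cannot be ordered. With each array scaled to its median absolute deviation the difference turned positive for hsp10 (0.22), mdj1 (0.13) and bip1 (0.078). The unnamed positions themselves differed by -0.50 on average between 6 h and 3.5 h, and the part of this shift in the result was not tested. Between 6 h and vegetative cells no member differed by 2-fold, and the differences ran from -0.018 (ssc1) to 0.46 (hsp78), where 2.54% of all genes were 2-fold higher and 3.03% lower in the 6 h cells. Each was within 2 SD of the unnamed spots (SD 0.44). Between 3.5 h and vegetative cells hsp78 (1.82) and mcp60 (1.03) passed 2-fold, where 7.91% of all genes were 2-fold higher and 8.12% lower in the 3.5 h cells. The mcp60 value is at the limit, and with arrays centred on their medians it was 0.99.

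Between 2 h and 1 h, hsp10, mcp60, ssc1, hsp78 and bip1 differed by -0.22 to 0.54, less than 2 SD of either kind of repeated spot. For the genes other than hsp78, each value of the 3.5 h, 6 h and vegetative arrays exceeded both early values by more than 2 SD of the unnamed spots, while the vegetative value of hsp78 lay within 2 SD of its 2 h value. Except for hsp78, the genes (5 of 6) were under 2-fold higher at 1 h and 2 h and at least 2-fold higher on all 3 later arrays. Of the 4708 genes with 5 values 68 did so (1.44%). The pattern was also found on lists of related genes that are described below. It was met by 4 of 22 cytosolic Hsp70 and Hsp90 genes, namely aha1, hsp90, ssa2 and wos2. So did 4 of 29 ER folding and translocation genes and 3 of 35 import genes. None of 24 mitochondrial protease and assembly, 13 ER-associated degradation and 13 cytosolic chaperonin and prefoldin genes did. The rule for this pattern was written after the values were seen. Its early and late arrays are also the 2 forms in which values were deposited, so the times and these forms cannot be told apart. The SD between repeated spots of an array does not cover a difference between the forms.

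A straight line of the log2 ratio on log2 hours was fitted to the 4 time course arrays with limma, across 4730 genes. Only hsp10 passed, with a slope of 1.88 ± 0.38 (SE) per doubling of time and a Benjamini-Hochberg adjusted p of 0.038 from limma. The call was lost without the 3.5 h array (adjusted p = 0.17 from limma), without the 6 h array (0.12) and with hours in place of log2 hours (0.076). Without the 1 h array ssc1 and mdj1 passed besides hsp10 (adjusted p = 0.018 and 0.00017 from limma), without the 2 h array all 6 did, and with scaled arrays bip1 did besides hsp10 (0.046). For the other 5 genes over the 4 arrays the slopes were 0.86 (bip1) to 1.08 (mdj1), and limma's adjusted p was 0.064 to 0.17. Missing the threshold does not show that these 5 genes had no trend. In the fit over all 4 arrays 4.08% of all genes passed with a rising slope and 5.07% with a falling one. Such shares are not given here for the refits, so the members' counts there cannot be set against all genes. Without the 2 h array the 6 genes had the same SE (0.22), so the calls there depended on slope alone. The fit measures departure from a line over 4 single arrays, not the spread between cultures.

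Genes of the surrounding machinery, taken from 6 lists, had smaller median differences between 3.5 h and 2 h. Single genes could exceed the members, up to 4.83 for ssa1 on the cytosolic Hsp70 and Hsp90 list. The counts of the lists stand against 11.6% of all genes 2-fold higher and 10.4% lower at this step. The import count is near that background. Of 35 genes on the mitochondrial import list 4 were 2-fold higher at 3.5 h, namely mia40 (1.66), tim10 (1.39), tam41 (1.21) and tim9 (1.10). Lower were imp2 (-1.62) and tim22 (-1.27), and the list median was 0.44. Being on this list does not show that a gene acts in import itself. Of 24 mitochondrial protease and assembly factor genes 5 were higher, the protease gene yme1 (1.95), phb1 (1.73), isa2 (1.42), cbp3 (1.38) and cox17 (1.30), and 0 were lower (median 0.43). Of 29 ER folding and translocation genes 8 were higher, of which cnx1 was the largest at 3.13, and rot1 (-1.38) and erj5 (-1.07) were lower (median 0.51). In the list of ER-associated degradation 1 of 14 genes was higher, ufd1 (1.08), and in the cytosolic chaperonin and prefoldin list 1 of 13, cct2 (1.04), with 0 lower in either (medians 0.50 and 0.41). Of these genes tim9, imp2, cbp3, cox17, ufd1 and cct2 were picked from their values. With each array centred on its gene median the import count was 3, the ER folding count was 4 and the last 2 lists had 0 genes higher. The 6 chaperone genes had a median of 2.56 and all 4767 genes a median of 0.093.

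The cytosolic Hsp70 and Hsp90 list was split. At 3.5 h 10 of 23 genes exceeded their 2 h value 2-fold, where 11.6% of all genes did. The gene ssz1 (-1.02) was as far below its own 2 h value (10.4% of all genes were), and the list median was 0.58. The 10 steps ran from 2.88 (fes1) to 4.83 (ssa1), and all exceeded those of hsp78, ssc1, mcp60 and bip1. Those of ssa1, sti1 (4.79), ssa2 (4.60) and aha1 (4.53) also exceeded the largest among the 6 members, 3.91 for hsp10. The Hsp90 gene hsp90 stood at -1.69 after 1 h, -0.98 after 2 h and 2.47 after 3.5 h, and sti1, for the protein that links Hsp70 to Hsp90, at -3.18, -2.87 and 1.92. In contrast sks2, the gene of a ribosome-associated Hsp70, was at 2.59, 2.77 and 2.29 on the same arrays. The heat shock factor gene hsf1 itself stood at -0.05, -0.66, -1.46, -1.13 and -1.22 in array order. The genes ssz1, sks2 and hsf1 were singled out after their values were seen.

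**Figure D4:**
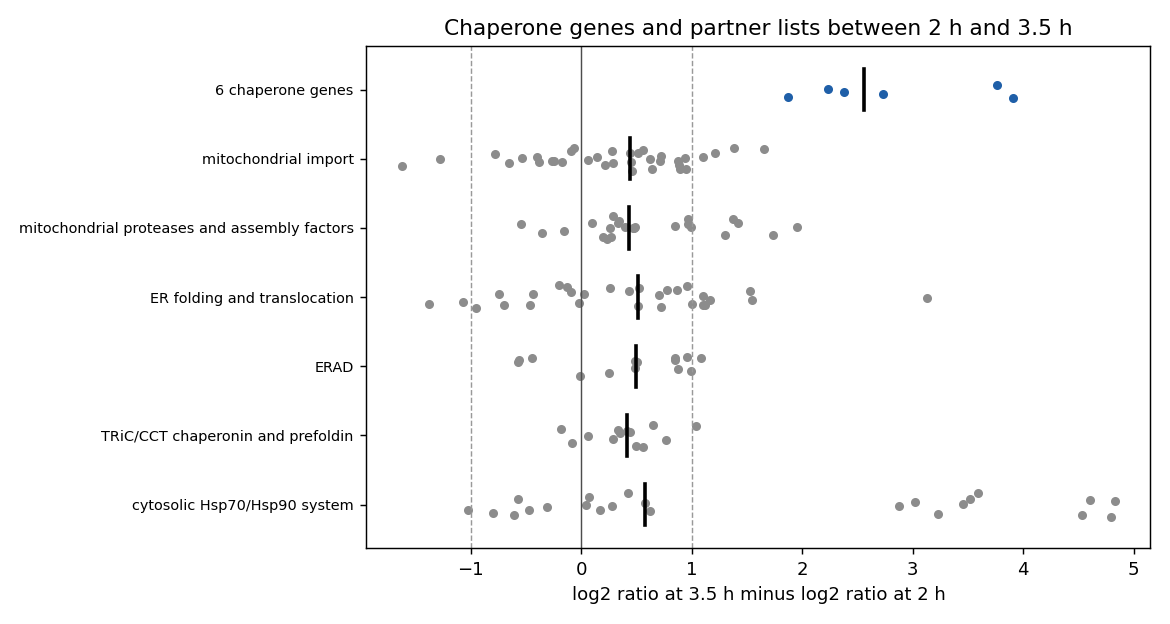
Log2 ratio at 3.5 h minus that at 2 h (horizontal axis) for the 6 chaperone genes (blue, top row) and each gene of the 6 lists (grey), with the list median as a black bar and dashed lines at 2-fold; the vertical scatter within a row has no meaning. The chaperone genes have a median of 2.56, and the lists have medians of 0.41 to 0.58. Single genes of the cytosolic Hsp70 and Hsp90 list reach 4.83, above the highest of the 6 (3.91).

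At 1 h 6 of 35 genes on the import list exceeded G0 cells 2-fold and 8 were as far below them (median 0.18). Of all genes 23.4% were higher and 22.6% lower, so neither count stands above the background. In vegetative cells 11 exceeded them and 0 lay below (median 0.65), where 15.8% and 14.6% of all genes did. The import pore gene tom40 stood at 0.74, 1.01, 1.89, 2.30 and 2.24 in array order. The intermembrane space import gene mia40 stood at -1.85 and -2.28 after 1 h and 2 h and at 0.60 in vegetative cells. Among the mitochondrial protease and assembly genes 10 of 25 were 2-fold lower at 1 h and 2 were higher (22.6% and 23.4% of all genes), the lowest being the inner membrane protease gene oma1 (-2.58). The prohibitin gene phb1 reached -2.91 after 2 h.

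The genes whose 5 values were most like the members' median profile were found by root mean square difference over the 5 arrays, which are single arrays that share G0 cells as the Cy3 sample. The nearest was mbf1 (0.17), with -0.73, -0.80, 2.04, 1.47 and 1.30 in array order, followed by the thioredoxin gene trx1 (0.38) and the ribonucleotide reductase gene cdc22 (0.39). The other 7 of the nearest 10 were cdt2, tim10, sss1, SPCC162.02c, wos2, mik1 and fes1, at 0.48 to 0.54. Among them tim10 is a small import chaperone gene of the mitochondrion, sss1 a subunit gene of the ER channel, wos2 a co-chaperone gene of Hsp90 and fes1 an exchange factor gene of cytosolic Hsp70. These genes were picked out for their roles, and the nearest genes were not sorted by role. Folding genes are thus not shown to prevail among them, and the roles of cdt2, mik1 and SPCC162.02c are left out here.

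By single member, the nearest gene to hsp10 was wis2 (0.42), which encodes a cyclophilin that works with Hsp90. The 2nd nearest to hsp10 was tos4 (0.60) and the 3rd hsp90 (0.63). The nearest to mdj1 was aha1 (0.34), the gene of the Hsp90 activator, and to mcp60 the replication gene cdc18 (0.34). Next to mcp60 came sss1 (0.38) and ams2 (0.38), and cdc18 was also the 2nd nearest to bip1 (0.34). The nearest to ssc1 was mbf1 (0.24), to hsp78 SPAPB1A10.05 (0.33) and to bip1 but1 (0.28). Among the members themselves the closest pair was mcp60 and ssc1 (0.39) and the most distant hsp78 and bip1 (1.64).

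The 6 genes are spread over the genome. In RefSeq's assembly mcp60, ssc1 and bip1 lie on chromosome I, hsp78 on chromosome II and hsp10 and mdj1 on chromosome III. None of their 12 protein-coding neighbours was 2-fold higher at 3.5 h than at 2 h, where 11.6% of all genes were. Of the neighbours 2 were 2-fold lower, where 10.4% of all genes were, so neither count stands apart from the background. The median difference was -0.036 for the neighbours and 0.093 for all genes. On the array the 6 spots lay in 6 different blocks of the 16, whose medians at 3.5 h ran from -0.20 to 0.35.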

How the data were processed

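The authors deposited 1 log ratio per spot for each of 5 cDNA arrays, read here as log2 of Cy5 over Cy3. Direction comes from the dyes, per the labels. How the authors scanned, background-corrected and normalized these log2 values is not stated in any source used here. Descriptions attached to 3 samples (3.5 h, 6 h, vegetative) give 2 h, and their source names and protocols were followed instead. Polyadenylated RNA (3 to 6 µg) was labelled.

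Of 5184 spots 4865 had 1 annotated gene, and spots of 1 gene were averaged. The nda3 spot that the authors' average leaves out was left out on all arrays. Names came from RefSeq (ASM294v3) through the Entrez identifier. The identifier annotated for hsp10 was not in that table, so hsp10 was matched by symbol. Spot intensities were not used here, so dim spots could not be filtered, and the number of arrays limits the precision.

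Spot error is the pooled SD of the control genes cdc2, nda3 and nuc1 (16 spots, or 15 for nda3) or of 12 unnamed positions repeated in 16 blocks. The members and lists were chosen with earlier results of these data known. Named genes are the 6 members, up to 4 genes of each list with the largest values, chosen partners, and the genes nearest in profile (10 to the median, 3 to each member). The text marks other genes as picked from their values. The trend used limma 3.58.1 in R 4.3.3 with 2 residual degrees of freedom. On simulated data it missed most genes given a slope of 1 and found most given a slope of 2. Other steps used Python 3.11.15, numpy 2.4.6 and pandas 2.3.3. Alternatives were array centring and scaling, block centring, other summaries of spots, other fold thresholds, another log base, complete genes and, for the trend, leaving out each array.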

Additional observations from a re-analysis of the deposited data

Results flagged for a closer look

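Of the 6 genes 3 were 2-fold above G0 cells on at least 1 array and 2-fold below on another. The share of all genes that did so was not counted. On the single arrays 15.6% to 23.4% of all genes were 2-fold above G0 cells and 14.6% to 22.6% were 2-fold below. The log2 ratio of hsp10 was 2.95 at 3.5 h and -1.44 at 1 h, that of mdj1 1.78 at 3.5 h and -1.98 at 2 h, and that of hsp78 1.82 at 3.5 h and -1.43 at 1 h. With 1 array per time these differences were not tested.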

How the results depend on the processing

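All 6 genes stayed 2-fold higher at 3.5 h, and 2-fold higher at 3.5 h than at 2 h, with arrays centred or scaled, blocks centred, medians or first of spots, 1.5-fold or 3-fold limits, natural logarithms and complete genes only. Counts that moved among the 6 were as follows. Those higher at 3.5 h than in vegetative cells (2) became 1 with arrays centred, scaled or block-centred or a 3-fold limit, and 3 with a 1.5-fold limit. Those lower at 2 h (1) became 2 with blocks centred and 3 with a 1.5-fold limit or natural logarithms, and the last 2 settings also put 1 gene higher at 2 h in place of 0. With the 1.5-fold limit 2 genes in place of 1 were lower at 6 h than at 3.5 h. With the 3-fold limit 0 were, 0 in place of 2 were lower at 1 h, 4 in place of 5 were higher at 6 h and 2 in place of 5 were higher in vegetative cells. For these settings the shares of all genes are not given here.

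For the lists, counts higher at 3.5 h than at 2 h became 3 (import), 4 (ER folding) and 0 (ER-associated degradation, cytosolic chaperonin) with arrays centred. They became 2 (import), 5 (ER folding) and 0 (ER-associated degradation, cytosolic chaperonin) with blocks centred. With the 1.5-fold limit they became 13 (import), 9 (protease and assembly), 13 (ER folding), 6 (ER-associated degradation) and 3 (cytosolic chaperonin). The shares of all genes under these settings are not given here. The 11.6% of all genes holds for the 2-fold limit without centring, so these counts cannot be set against it. The number of members with a trend (1) was 0 to 6 when 1 of the 4 arrays was left out, with 1 residual degree of freedom. It was 6 without the 2 h array, and the share of all genes passing in these refits is not given here. It was 2 with scaled arrays and 0 with hours, and the cause was not tested. No paired analysis was possible because each condition has 1 array. The planned promoter motif count was not run, as no promoter sequence was used here.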
